A study of Boechera gunnisoniana with 7 samples.

Results

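The 26S proteasome genes of *Boechera gunnisoniana* were followed across 5 kinds of cells or tissue of the apomictic ovule. The set was a fixed list of 49 *Arabidopsis* identifiers, 23 for the 20S core particle (PAA to PBG) and 26 for the 19S regulatory particle (RPT and RPN), chosen by identifier and not by value. Of these, 41 had values among the 21428 genes of the array table, 19 of the core and 22 of the regulatory particle. No values were available here for PAA1, PAA2, PBE1, PBE2, RPT1A, RPT6A, RPT6B and RPN9B, so that the PAA, PBE, RPT1 and RPT6 subunits were not represented.

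*B. gunnisoniana* is a triploid relative of *Arabidopsis* that forms seeds by apomixis, a clonal route in which the germline skips meiosis and the egg cell forms an embryo without fertilization. Cells were collected by laser-assisted microdissection (LAM), and their amplified RNA was hybridized to ATH1 GeneChips, which carry *Arabidopsis* probes. There were 7 arrays. The young ovule gave 2 of the apomictic initial cell (AIC), from which the germline starts, and 2 of the sporophytic nucellus tissue around it. The mature female gametophyte gave 1 array for its egg cell, 1 for its central cell and 1 for its synergid cells. No treatment or transgene was used, and the flowers that gave the gametophyte cells were emasculated before fixation. Each sample was a pool of sections, and whether both samples of a kind came from separate plants was not stated, so that p values measure only the spread between these samples. By the methods, the AIC samples can hold some nucellus, and each gametophyte sample some of the neighbouring gametophytic cells. The egg, central and synergid cells had no replicate array.

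The 26S proteasome degrades proteins that carry ubiquitin chains. Its core is a barrel of rings of alpha subunits, which gate the entry, and rings of beta subunits, some of which are the proteases. The regulatory particle at its end recognizes and removes the ubiquitin and unfolds the substrate with a ring of ATPases (RPT). In *Arabidopsis* most subunits are encoded by a pair of paralogs, and loss of both copies of several subunits is lethal to the gametophytes.

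The values are on a log2 scale, so that a difference of 1 is a 2-fold difference in signal. Signal also depends on how well each probe matches the *Boechera* transcript. The place of a gene among others on an array, such as the top 25%, therefore describes its signal and not its transcript level. The central and synergid cell arrays had a narrower spread of values. The standard deviation over all genes was 1.11 for the central cell and 1.24 for the synergid cells, against 1.38 to 1.44 on the other 5 arrays. The 18 hybridization controls, which are added to the sample, had means of 11.4 and 12.5 on these arrays, against 9.25 to 10.7 on the other 5. In the paper, fewer genes were detected above background on these arrays than on any of the other 5, and fewest in the central cell. These properties move with the results below, and their part in them was not tested. For this reason the subunits are set beside all genes and beside the 5357 genes in the top 25% by mean over the 7 arrays, hereafter high-signal genes.

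Markers were measured with the labels in view. Of 3 synergid markers in the table, 2 were in the top 25% of values on the synergid cell array and none on another array. They were *MYB98*, a transcription factor of the synergid cells, at 6.61, and *NTA*, which acts in pollen tube reception, at 6.08. The summed log2 value of the 7 central cell markers was highest on the central cell array, at 31.7, against 24.8 to 29.4 on the others. Only *AGL80* was in the top 25% there, and it was also on the egg cell, synergid cell and second nucellus arrays. *AGL61*, *AGL80*, *FWA* and *MEA* were highest in the central cell. *FIS2* was highest in the egg cell, and *DD65* and *DD9* were highest in the synergid cells. None of the 3 egg cell markers in the table was in the top 25% on the egg cell array. Their sum there was 9.40, within the range of 9.2 to 9.6 on the arrays other than that of the synergid cells, where it was 11.3. The label of the egg cell array is therefore not borne out by these markers. Among 6 ovule sporophyte markers, *INO*, which patterns the outer integument, was at 7.14 on the first nucellus array and at 4.2 to 5.1 elsewhere, in the top 25% on that array and on the central cell array. *STK*, which acts in ovule identity, was in the top 25% on the egg cell array alone, at 5.86, with 3.03 to 4.92 elsewhere. The other 4 were in the top 25% on no array.

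Most proteasome genes gave high signal. The top 25% of each array, which holds 25% of all genes by construction, held 36 of the 41 subunit genes in both AIC samples, 37 and 33 in the nucellus, 36 in the egg cell, 26 in the central cell and 30 in the synergid cells. On all 7 arrays 22 subunit genes were in the top 25%, as were 12.4% of all genes. They included 8 of the 10 alpha subunits, the ATPases RPT3 and RPT5A, and the ubiquitin receptor RPN10. PAE1, RPN5B, RPN8B and RPN9A were in the top 25% on no array, as were 57.9% of all genes. For PAE1, RPN5B and RPN8B the paralog was in the top 25% on at least 6 arrays, and for RPN9A the paralog had no value here. Among core genes, 18 of 19 were in the top 25% on each AIC and nucellus array and on the egg cell array, 17 in the synergid cells and 13 in the central cell.

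The median of the 41 values followed a similar order. It was 6.81 and 6.70 in the AIC, 7.03 and 6.48 in the nucellus, 6.63 in the egg cell, 5.37 in the central cell and 6.0 in the synergid cells. The egg cell median thus lay among the AIC and nucellus medians, and those of the central and synergid cells lay below them all. The median of all genes was between 4.0 and 4.2, and that of the high-signal genes between 5.62, on the central cell array, and 6.03. For the core genes the median was 7.23 and 7.31 in the AIC, 7.41 and 6.59 in the nucellus, 6.63 in the egg cell, 5.47 in the central cell and 6.04 in the synergid cells. For the regulatory particle it was 6.59 and 6.46, 6.58 and 6.02, 6.56, 5.32 and 5.46 in the same order.

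**Figure D1:**
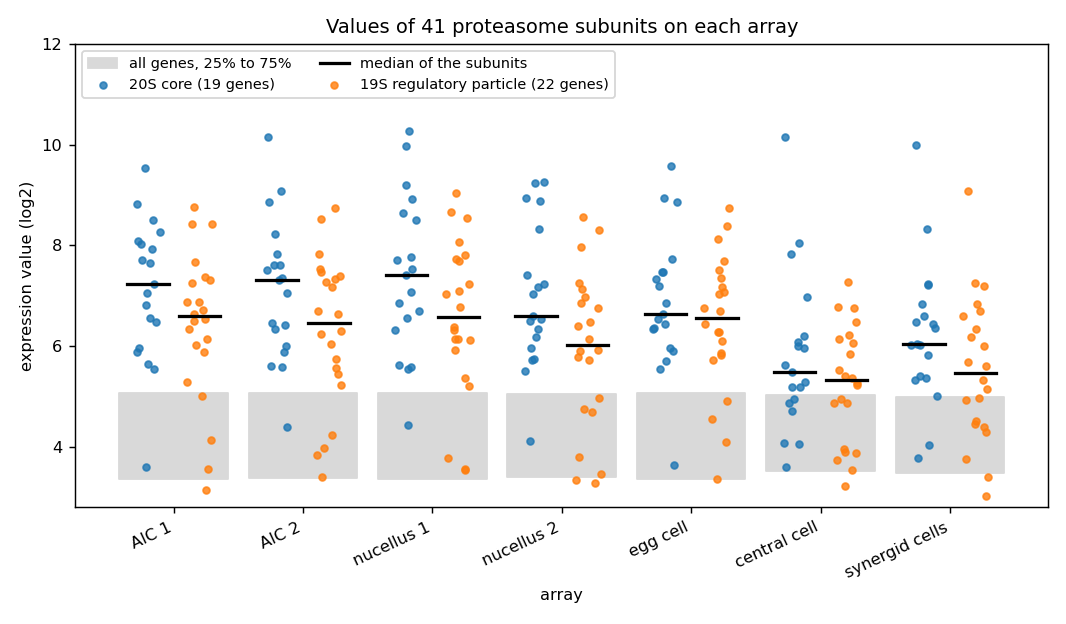
Log2 expression values (vertical axis) of the 19 core genes (blue) and the 22 regulatory particle genes (orange) on each of the 7 arrays, each point a gene. Black lines mark the medians of the subunits and grey boxes the span of all genes between their lowest and highest 25%. The medians of both particles are lowest in the central cell.

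No subunit gene passed an adjusted p of 0.05 in any of 5 comparisons fitted with limma over all 21428 genes (0 genes called, 0% of all genes, in each). The fit took the spread from the AIC and nucellus pairs and assumed that the single arrays vary like them. The lowest adjusted p of a subunit gene was 0.938 for the AIC against the nucellus, 0.161 for the egg cell, 0.120 for the central cell, 0.166 for the synergid cells and 0.120 for the gametophyte cells together, the last 4 each against the mean of the AIC and nucellus means (hereafter the young ovule mean). These 4 comparisons share the AIC and nucellus arrays. At an unadjusted p of 0.05, the limma fit placed 17 subunit genes lower and 1 higher in the central cell (5.56% and 14% of all genes). The counts were 14 lower and 0 higher in the synergid cells (4.58% and 11.9%). They were 13 and 0 in the gametophyte cells together (5.9% and 13.9%) and 3 and 5 in the egg cell (3.86% and 7.27%). In the AIC against the nucellus they were 1 and 0 (1.75% and 2.08%). Of the high-signal genes, 18% were lower and 7.77% higher in the central cell, and 10.7% and 7.04% in the synergid cells. These shares were 17% and 8.08% in the gametophyte cells together, 7.82% and 8.46% in the egg cell, and 3.32% and 3.88% in the AIC.

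In the deposited values, the central cell array had the lowest subunit signals. The log2 difference from the young ovule mean was below 0 for 38 of 41 genes, against 42.6% of all genes and 66.8% of the high-signal genes. The median difference was -1.05, a 2.08-fold lower signal, against 0.06 for all genes and -0.31 for the high-signal genes. At least 1 lower were 21 subunit genes, against 8.35% of all genes and 27.5% of the high-signal genes, and none was at least 1 higher (3.77% of all genes). The central cell value lay below all 4 AIC and nucellus arrays for 26 genes (17.6% of all genes and 37.7% of the high-signal genes), and was the lowest of the 7 arrays for 21 (11.3% and 26.3%). It was below the egg cell value for 35 genes (37.8% and 59.7%). After quantile normalization, which gives every array the same distribution, the median difference was -0.46, with 30 genes below 0 and 13 at least 1 lower. The high-signal genes then had a median of 0.05, with 47.6% below 0 and 20.0% at least 1 lower. Of all genes, 50.6% were then below 0 and 6.92% at least 1 lower.

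The ATPase ring, which unfolds substrates, had the lowest median in the central cell, with -1.87 over 7 genes. RPT2A (AT4G29040), whose yeast counterpart opens the gate of the core, had log2 values of 8.75 and 8.53 in the AIC, 8.06 and 8.55 in the nucellus, 8.38 in the egg cell, 3.55 in the central cell and 7.25 in the synergid cells. The central cell stood apart from the other 6 arrays, and the range of 5.21 was the widest of all subunit genes. The central cell value was close to 3.53, below which 25% of all genes lay on that array, so that a signal above background is not shown there and the size of the difference is uncertain. Its difference from the young ovule mean was -4.93 (SE 0.26, limma adjusted p = 0.120). The paralog RPT2B (AT2G20140) was likewise lowest in the central cell, at 4.86, with 5.90 to 7.80 on the other arrays. RPT3 (AT5G58290), also an ATPase, was at 6.76 in the central cell and between 8.31 and 9.08 elsewhere, the highest value being that of the synergid cells.

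RPT4B (AT1G45000), another ATPase, was low in all gametophyte cells. Its log2 values were 7.66 and 7.38 in the AIC, 7.08 and 7.25 in the nucellus, 5.72 in the egg cell, 3.89 in the central cell and 4.45 in the synergid cells. The 3 gametophyte arrays lay below the 4 young ovule arrays with no overlap. The differences from the young ovule mean were -1.63 in the egg cell, -3.45 in the central cell and -2.89 in the synergid cells (SE 0.18 each, limma adjusted p = 0.161, 0.120 and 0.166). RPT4A (AT5G43010) was at 6.64 and 6.04, 7.03 and 6.85, 6.75, 5.41 and 4.30 in the same order. For this paralog the egg cell lay among the young ovule arrays, and the synergid cells were lowest, at a difference of -2.34 (SE 0.29, limma adjusted p = 0.177). RPT5A and RPT5B, required together in the *Arabidopsis* gametophytes, differed by -0.37 and -0.19 in the central cell.

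In the core, both genes of PBD, a beta subunit without protease activity, had large differences. PBD1 (AT3G22630) had log2 values of 8.27 and 7.31 in the AIC, 6.86 and 7.41 in the nucellus, 5.90 in the egg cell, 4.05 in the central cell and 6.04 in the synergid cells. PBD2 (AT4G14800) had 7.71 and 6.33, 7.41 and 6.17, 5.69, 3.60 and 3.77. For both, every gametophyte array lay below every young ovule array. The central cell values of both, like those of RPT4B and RPN8A, lay below the median of all genes on that array, 4.16. The sizes of their central cell differences are therefore uncertain. For PBD1 and PBD2 these differences were -3.42 (SE 0.50, limma adjusted p = 0.124) and -3.30 (SE 0.82, adjusted p = 0.183). The PBD2 pairs were far apart, by 1.38 in the AIC and 1.24 in the nucellus.

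Other core genes were low in the central cell as well. PAB1 (AT1G16470), an alpha ring gene, had 8.82 and 9.09 in the AIC, 9.96 and 9.25 in the nucellus, 8.86 in the egg cell, 6.01 in the central cell and 7.21 in the synergid cells. Its egg cell value lay within the AIC pair, whereas the central and synergid cells lay below all other arrays. PBF1 (AT3G60820), of the beta ring, was at 4.94 in the central cell and between 6.47 and 7.92 elsewhere. The medians of the central cell differences were -1.26 for the 9 beta genes and -0.94 for the 10 alpha genes.

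The central cell differences of some genes were smaller or above 0. PBA1 (AT4G31300), the caspase-like protease subunit, had 9.54 and 10.15 in the AIC, 10.27 and 8.94 in the nucellus, 9.57 in the egg cell, 10.16 in the central cell and 9.99 in the synergid cells. The groups overlapped, and the central cell difference was 0.43 (SE 0.65, limma adjusted p = 0.842). This value depends on the scaling, and after quantile normalization it was 1.81. PBB1 (AT3G27430), a gene of the trypsin-like subunit, had the narrowest range of all subunit genes, 0.47, with values of 5.28 to 5.74, of which the central cell had the lowest. RPN1B (AT4G28470), a scaffold gene, was at 6.13 and 5.23 in the AIC, 6.13 on both nucellus arrays, 5.86 in the egg cell, 6.14 in the central cell and 6.33 in the synergid cells. Its central cell difference was 0.23, and 0.82 after quantile normalization. Over the 4 scaffold genes (RPN1 and RPN2), which hold the base of the regulatory particle together, the median central cell difference was -0.15, and RPN10, a receptor for ubiquitin chains, differed by -0.19. RPN5B (AT5G64760), at 3.14 to 3.94 and in the top 25% on no array, had the highest positive difference, 0.59 (SE 0.18, limma adjusted p = 0.237). RPN1B and RPN5B were the 2 genes with a central cell value above all 4 young ovule arrays (36.2% of all genes).

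The lid, which removes the ubiquitin chain, was mixed. The 7 genes with a PCI domain, which form the frame of the lid, had a median central cell difference of -1.08, and 5 of them were at least 1 lower. Of the 3 MPN domain genes, RPN8A (AT5G05780) differed by -1.99, with values of 3.88 in the central cell and 5.15 to 6.14 elsewhere. RPN11 (AT5G23540), the deubiquitinating enzyme of the lid, had 6.35 and 5.74 in the AIC, 6.32 and 4.70 in the nucellus, 6.28 in the egg cell, 5.22 in the central cell and 4.52 in the synergid cells, so that the groups overlapped through the second nucellus array.

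**Figure D2:**
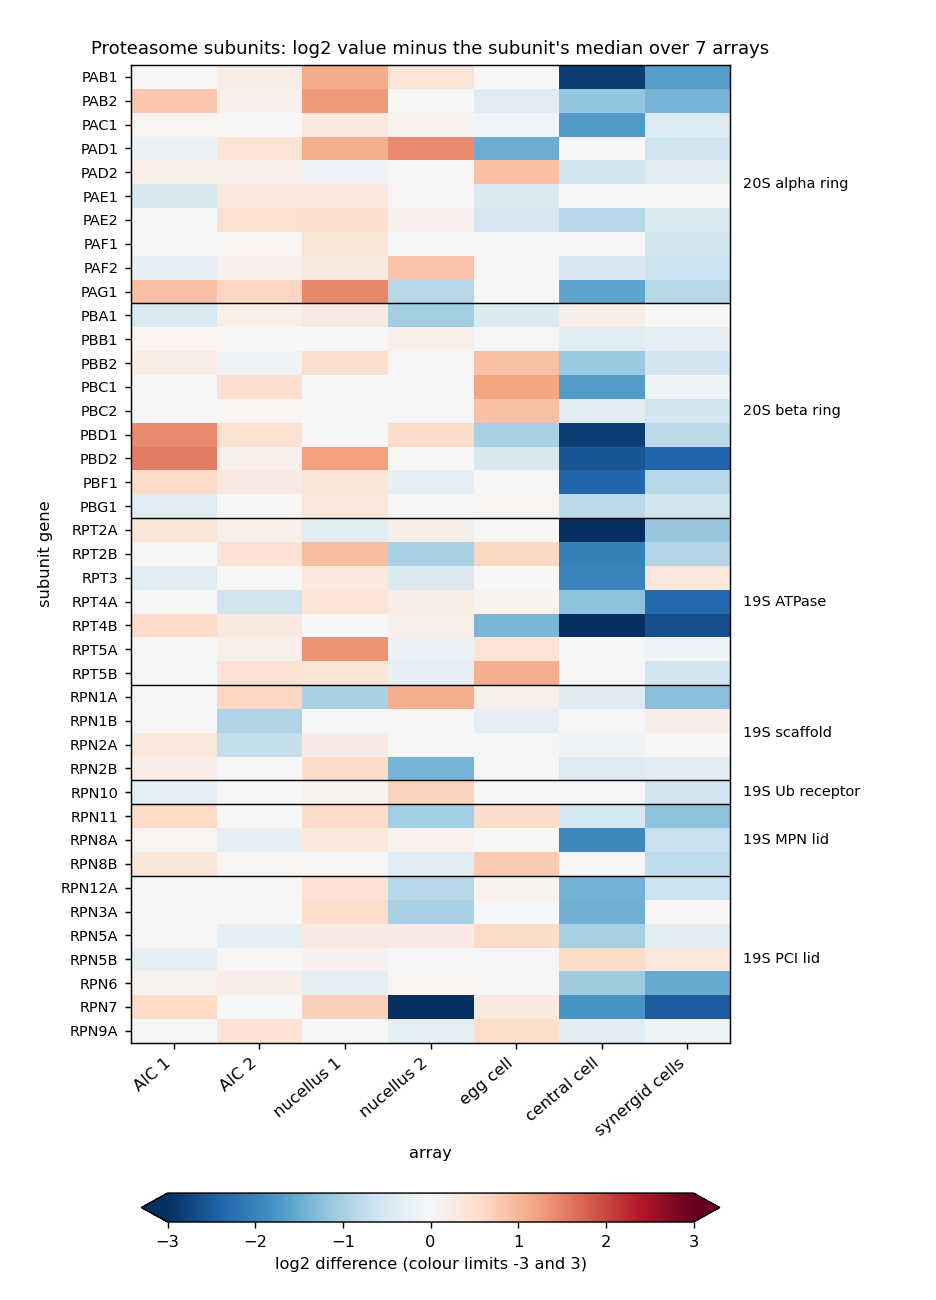
Log2 value of each of the 41 subunit genes (rows, grouped by role) on each array (columns), minus the median of that gene over the 7 arrays, in blue where lower and in red where higher. The central cell column is the lowest for 21 genes, and the single dark cell of the second nucellus array is RPN7.

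The synergid cell array had the next lowest signals in the deposited values. The median difference from the young ovule mean was -0.72, a 1.64-fold lower signal, against 0.02 for all genes and -0.20 for the high-signal genes. Below 0 were 35 of 41 genes (47.4% of all genes and 64% of the high-signal genes), and 14 were at least 1 lower (6.2% and 18.1%), with none at least 1 higher (3.78% of all genes). The synergid cell value lay below all 4 young ovule arrays for 27 genes (21.6% and 33.4%), and it was the lowest of the 7 arrays for 11 (13.8% and 17.4%). Below the egg cell value were 31 genes (41.2% and 55.3%). PBD2 differed by -3.13 (SE 0.82, limma adjusted p = 0.252), followed by RPT4B and RPT4A. The PBD2 value of 3.77 lay below the median of all genes on that array, 4.10, so that the size of its difference is uncertain. RPN7 (AT4G24820), a lid gene, differed by -1.82, and RPN6 (AT1G29150), which clamps the lid to the core in yeast, by -1.52. The highest positive differences were 0.45 for RPT3, 0.42 for RPN1B and 0.40 for RPN5B, the 3 genes whose synergid cell value was above all 4 young ovule arrays (31.2% of all genes). After quantile normalization these differences were 0.94, 0.77 and 0.30. After quantile normalization the median was -0.45 for the subunits and 0.05 for the high-signal genes. At least 1 lower were then 9 subunit genes (5.26% of all genes and 13.1% of the high-signal genes). The central cell median was then -0.46, so that both arrays were nearly alike by this measure. Below 0 were then 30 genes in the central cell and 31 in the synergid cells (50.6% and 52.1% of all genes). The regulatory particle median was then lower in the synergid cells, -0.51 against -0.47, and the core median in the central cell, -0.46 against -0.34. Between the arrays themselves, the central cell was below the synergid cells for 24 of 41 genes, against 44.5% of all genes and 52.9% of the high-signal genes.

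Over all 41 genes the egg cell had a median close to that of the young ovule samples, with a difference of -0.02 against -0.03 for all genes. The particles differed in this. The median difference was -0.23 for the 19 core genes, with 14 below 0, and 0.11 for the 22 regulatory particle genes, with 8 below 0. This split was not tested. In all, 22 of 41 genes were below 0 (54.1% of all genes and 56% of the high-signal genes). At least 1 lower were 4 genes, PAD1, PBD1, PBD2 and RPT4B (4.21% of all genes and 11.1% of the high-signal genes), and 1, PBC1, was at least 1 higher (5.6% and 10.7%). PAD1 (AT3G51260), an alpha ring gene, had log2 values of 7.65 and 8.23 in the AIC, 8.93 and 9.25 in the nucellus, 6.35 in the egg cell, 7.83 in the central cell and 7.24 in the synergid cells. It was the 1 subunit gene with its lowest value in the egg cell (19.3% of all genes), at a difference of -2.16 (SE 0.31, limma adjusted p = 0.208). PBC1 (AT1G21720), a beta subunit without protease activity, had 6.55 and 7.06, 6.55 and 6.53, 7.73, 4.88 and 6.43 in the same order. Its egg cell value was the highest and its central cell value the lowest of the 7, and the egg cell difference was 1.06 (SE 0.25, limma adjusted p = 0.337). Above all 4 young ovule arrays were 8 genes in the egg cell (22.1% of all genes), PAD2, PBB2, PBC1, PBC2, RPT5B, RPN5A, RPN8B and RPN9A, and 8 lay below them (26.2%). These shares of the 41 genes, 19.5% each, were not above those of all genes. RPT5B (AT1G09100) had 5.00 and 5.44, 5.36 and 4.74, 6.09, 4.94 and 4.39, again highest in the egg cell. RPN7 had an egg cell difference of 0.97 (SE 2.09, limma adjusted p = 0.954) and RPT5B one of 0.96 (SE 0.35, adjusted p = 0.482).

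Over the 3 gametophyte arrays together the median difference from the young ovule mean was -0.43, against 0.05 for all genes and -0.20 for the high-signal genes. At least 1 lower were 10 genes (4.8% of all genes and 15.1% of the high-signal genes) and 0 at least 1 higher (1.49% of all genes), while 37 were below 0 (43.1% and 63.4%). After quantile normalization the median was -0.17, against 0.04 for the high-signal genes. At least 1 lower were then 7 subunit genes (3.59% of all genes and 10.1% of the high-signal genes). The largest differences were -2.66 for RPT4B (SE 0.12, limma adjusted p = 0.120), -2.55 for PBD2 (SE 0.56, adjusted p = 0.179) and -2.14 for PBD1 (SE 0.34, adjusted p = 0.149). Their central cell values, and the PBD2 synergid cell value, lay below the median of all genes, so these sizes are uncertain. The highest were 0.33 for RPN5B, 0.20 for RPN1B and 0.18 for PBA1, or 0.25, 0.52 and 0.87 after quantile normalization. Every gametophyte array was below every young ovule array for 7 genes, PAB2, PAC1, PAE2, PBB1, PBD1, PBD2 and RPT4B (3.97% of all genes and 9.65% of the high-signal genes), and above them for 0 genes (7% of all genes). Of these 7 genes, 6 belong to the core.

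**Figure D3:**
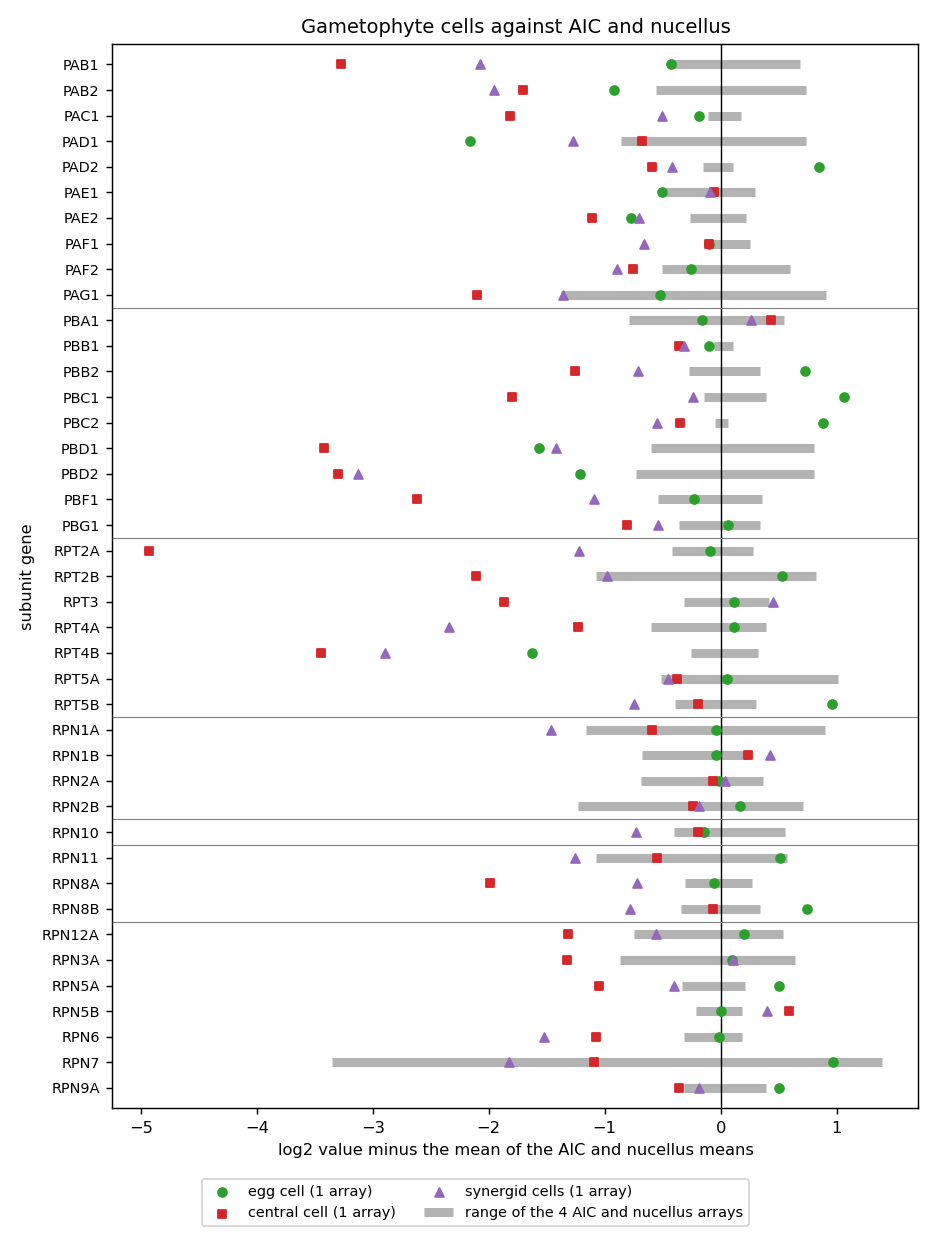
Log2 difference of the egg cell (circles), central cell (squares) and synergid cells (triangles) from the young ovule mean for each of the 41 subunit genes, with grey bars for the range of the 4 AIC and nucellus arrays. RPT4B, PBD1 and PBD2 have all 3 symbols left of the bar, and the grey bar of RPN7 is the widest.

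The AIC was compared with the nucellus to see whether the germline differs from the tissue around it. The median difference of the 41 genes was 0.06, with 20 below 0 (51% of all genes), 1 at least 1 lower (2.92%) and 1 at least 1 higher (2.45%). Both AIC values lay below both nucellus values for 9 genes (14.3% of all genes) and above them for 4 (12.7%). The widest gaps between the pairs were 0.70 for PAD1, 0.26 for RPN5A, 0.21 for RPT4A and 0.16 for PAB1, each with the nucellus higher. PAD1 had a difference of -1.15 (SE 0.28, limma adjusted p = 0.938), PAB1 of -0.65 and PAF2 of -0.63. The values of PAF2 (AT1G47250), an alpha ring gene, were 7.23 and 7.61 in the AIC and 7.77 and 8.33 in the nucellus. The highest positive differences were 1.96 for RPN7 (SE 1.87), 0.66 for PBD1 and 0.54 for RPN11 (limma adjusted p = 0.938 for each).

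The value of RPN7 rests on a single array. It had 8.43 and 7.82 in the AIC, 8.54 and 3.80 in the nucellus, 8.12 in the egg cell, 6.06 in the central cell and 5.32 in the synergid cells. Without the second nucellus array the AIC difference was -0.41. This array was lower than the first for 30 of 41 subunit genes, against 42.8% of all genes and 53.4% of the high-signal genes, and at least 1 lower for 11 of them (6.24% and 16%). It was the lowest of the 7 arrays for 4 genes, PBA1, RPT5A, RPN2B and RPN7 (11.8% of all genes). RPN1A (AT2G20580), the RPN1 gene required for embryogenesis in *Arabidopsis*, was the 1 gene at least 1 higher on it (5.06%), with 5.91 and 7.97. In all, the nucellus arrays were at least 1 apart for 12 subunit genes (29.3%), against 11.3% of all genes and 25.7% of the high-signal genes. The AIC arrays were at least 1 apart for 2 genes, PBD2 and RPN2A (7.83% of all genes and 17.8% of the high-signal genes). The median absolute difference between replicates was 0.31 for the AIC and 0.48 for the nucellus, with 0.42 and 0.48 for the high-signal genes. Without the second nucellus array the median AIC difference of the 41 genes was -0.39.

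Both paralogs were measured for 14 subunits. As probe sets differ in their match to *Boechera*, only the change of the difference between paralogs across arrays was read, and near-identical paralogs may bind the same RNA. The difference changed by at least 1 for all 14 pairs and by at least 2 for 9 pairs, with a median range of 2.13. Between replicates the median change was 0.43 for the AIC and 0.61 for the nucellus. A range over 7 arrays is wider than a difference between 2 arrays by construction, so these measures are not alike. Single high-signal genes had a median range of 1.70 over the 7 arrays, and ranges of other gene pairs were not measured.

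RPT2A minus RPT2B had the widest range, 3.97. It was 1.87 and 1.21 in the AIC, 0.26 and 2.66 in the nucellus, 0.88 in the egg cell, -1.32 in the central cell and 1.25 in the synergid cells. It was lowest in the central cell, where the RPT2A value was near the lowest 25% of genes, and the nucellus arrays were themselves 2.40 apart. PAD1 minus PAD2 had a range of 3.80, with 1.76 and 2.34, 3.29 and 3.52, -0.28, 2.64 and 1.87 in the same order. Here the egg cell stood apart, with PAD1 at its lowest and PAD2 (AT5G66140) at its highest of the 7 arrays, and the pairs were 0.58 and 0.22 apart. RPT4A minus RPT4B was -1.03 and -1.34, -0.05 and -0.40, 1.04, 1.52 and -0.15. It was higher in the egg and central cells than on the other 5 arrays. RPN1A minus RPN1B had a range of 3.02, but the nucellus arrays were 2.06 and the AIC arrays 1.55 apart.

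The smallest ranges were 1.32 for PAE1 minus PAE2, 1.36 for PAF1 minus PAF2, 1.69 for RPT5A minus RPT5B and 1.73 for PBB1 minus PBB2. The PAE difference was closest to 0 in the central cell, at -2.12, with -2.56 in the synergid cells and -3.44 to -2.91 on the other arrays. The central and synergid cell arrays also had the narrowest spread of values over all genes, whose part in this was not tested. PAE1 gave low signal throughout. Between the first AIC array and the central cell, which set the range, PAE1 (AT1G53850) went from 3.60 to 4.08 and PAE2 (AT3G14290) from 7.04 to 6.20.

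**Figure D4:**
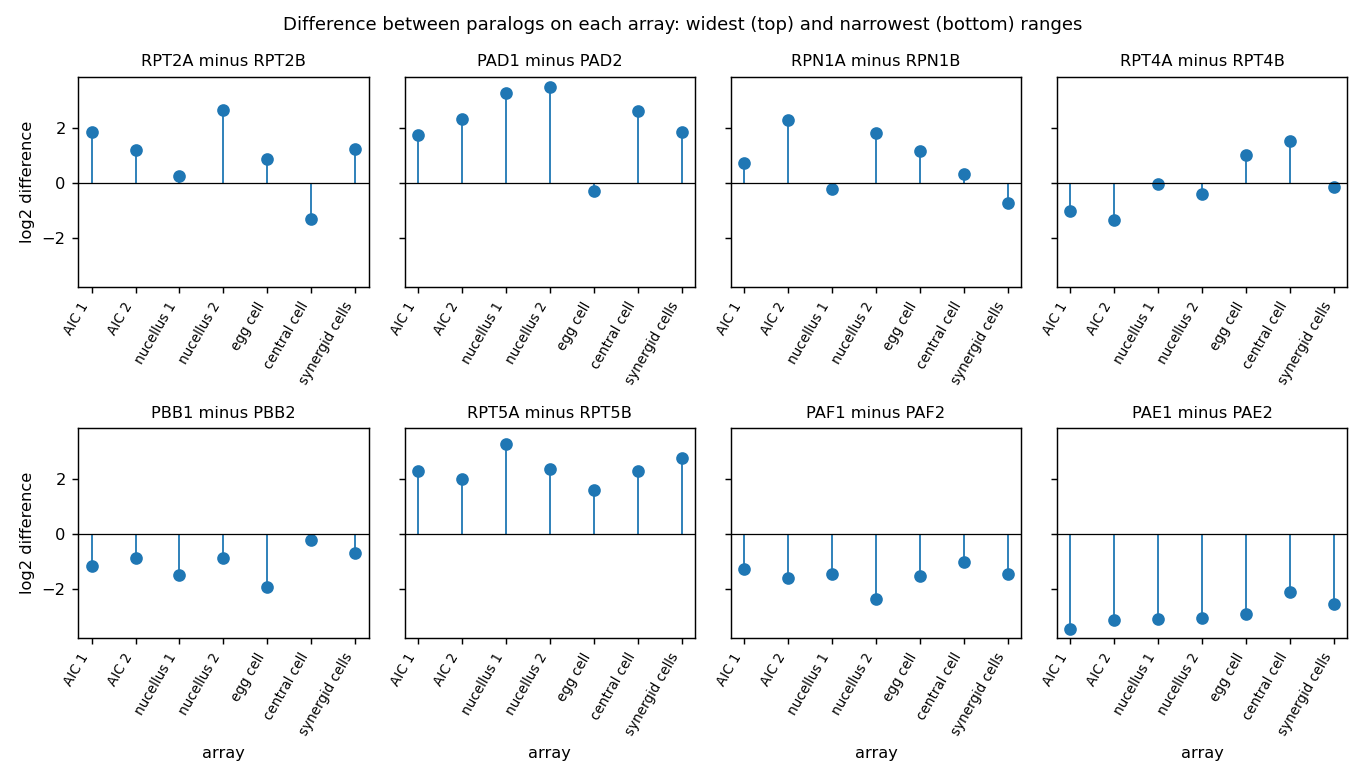
Log2 value of the first paralog minus that of the second on each array, for the 4 pairs with the widest range (top) and the 4 with the narrowest (bottom). RPT2A minus RPT2B is lowest in the central cell and PAD1 minus PAD2 in the egg cell.

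The range over the 7 arrays was 1.85 at the median of the 41 genes, against 0.91 for all genes and 1.70 for the high-signal genes. The widest were 5.21 for RPT2A, 4.74 for RPN7, 4.23 for PBD1, 4.11 for PBD2 and 3.95 for PAB1. The narrowest were 0.47 for PBB1, 0.81 for RPN5B, 0.83 for PAE1, 0.86 for RPN9A and 0.91 for PAF1. Of the narrow ones, RPN5B, PAE1 and RPN9A gave low signal throughout, whereas PBB1 and PAF1 were in the top 25% on all 7 arrays. PAF1 (AT5G42790) had 5.96 and 6.01 in the AIC, 6.31 and 5.96 in the nucellus, 5.96 in the egg cell and in the central cell and 5.40 in the synergid cells. Exactly equal values on at least 2 arrays occurred for 9 subunit genes (38.2% of all genes).

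Other genes that act with the proteasome were also measured. Of 47 listed genes, for assembly, further subunits, ubiquitin, shuttle receptors, deubiquitinases, regulators and the COP9 signalosome, 43 had values, and 0 passed the adjusted threshold in any of the 5 comparisons. Their median central cell difference was -0.17, with 26 below 0 (42.6% of all genes and 66.8% of the high-signal genes) and 7 at least 1 lower (8.35% and 27.5%). The largest was that of *RAD23D* (AT5G38470), a shuttle receptor that brings ubiquitinated proteins to the proteasome, with 8.22 and 7.75 in the AIC, 6.71 and 7.39 in the nucellus, 8.46 in the egg cell, 4.98 in the central cell and 8.33 in the synergid cells. It was followed by *CDC48C* with -1.77 and *UMP1A*, a core assembly factor, with -1.66. For *UMP1A* the second nucellus array was as low as the central cell, at 5.75 and 5.99, with 7.38 to 8.34 elsewhere. The 10 genes of the COP9 signalosome, a complex built like the lid, had a median central cell difference of -0.05. Most of them, namely *CSN2*, *CSN4*, *CSN5A*, *CSN5B*, *CSN6A* and *CSN6B*, gave low signal throughout. Their median can therefore not be compared with that of the lid genes. The central cell differences of *CSN1*, *CSN3* and *CSN8*, which gave higher signal, were 0.54, -0.52 and -0.53. In the egg cell the largest difference was -1.90 for *NAC053* (AT3G10500), a transcription factor of proteasome subunit genes, with 5.70 there and 7.27 to 7.79 on the other 6 arrays. In the synergid cells it was -1.42 for *CSN3* of the signalosome, whose second nucellus array was as low, at 5.52 on both. The first nucellus array had 7.36 and the AIC 8.15 and 6.70, so that the groups overlapped.

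**Figure D5:**
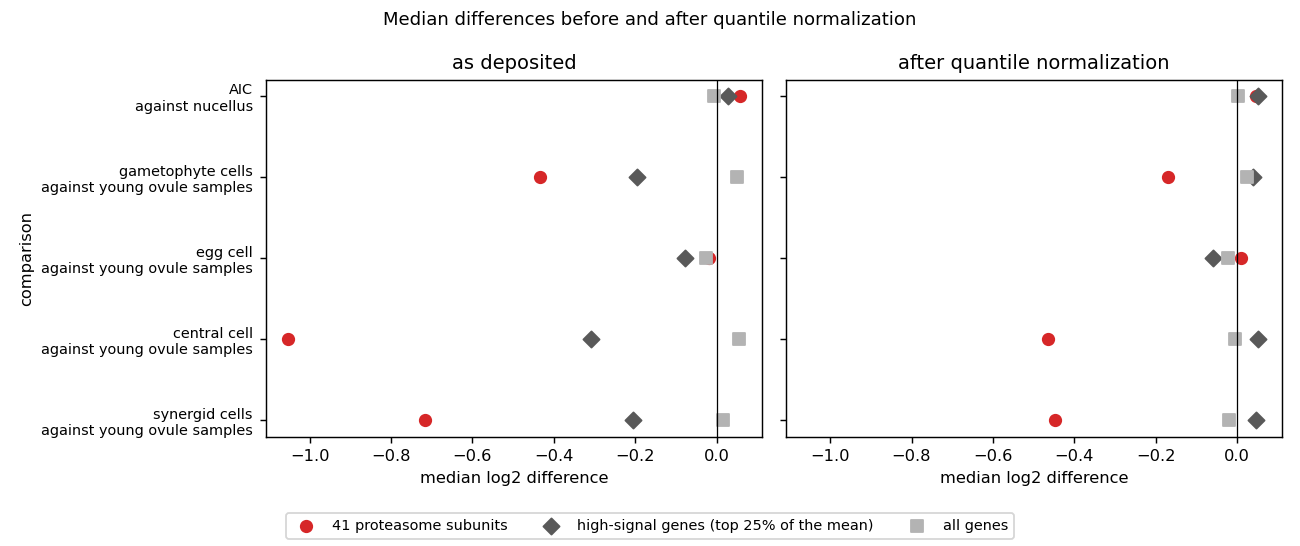
Median log2 difference (horizontal axis) of the 41 subunit genes, the high-signal genes and all genes in each of the 5 comparisons, as deposited (left) and after quantile normalization (right). The subunit median of the central cell moves from -1.05 to -0.46 and that of the synergid cells from -0.72 to -0.45, while the high-signal genes move to 0.05 in both.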

How the data were processed

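The authors deposited log2 expression values of 7 ATH1 arrays, 1 value per gene and array, with probes grouped by gene (brainarray TAIRG version 14). The methods refer to an earlier study for the array processing and name RMA for the heatmap values; the steps behind the deposited table are not spelled out in them. The values were used without further normalization, and 64 control features were left out. Arrays have no read depth, and their number limits the precision.

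Subunit names were assigned to the identifiers from the general *Arabidopsis* nomenclature, as the table holds identifiers only. Members and lists were chosen with earlier results of these data known. The 5 comparisons were fitted in R 4.3.3 by lmFit and eBayes of limma 3.58.1, on all 21428 genes with 1 mean for each of the 5 kinds of sample. This leaves 2 residual degrees of freedom, from the AIC and nucellus pairs. Benjamini-Hochberg adjustment was used, with a threshold of 0.05. Medians, ranks and paralog differences are descriptions with no test (Python 3.11.15, pandas 2.3.3).

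Values were given by rule for the 3 highest and 3 lowest differences per comparison, the 5 widest and 5 narrowest ranges, the 4 paralog pairs with the widest and the 4 with the narrowest range, the 4 widest gaps between the AIC and the nucellus, and the 3 largest differences among other pathway genes. RPT2B, RPT3, PAD2, PAE2, PBF1, RPN6, RPN8A, RPN10, RPN1A and *UMP1A* were also described, some of them chosen after their values were seen. Alternatives were quantile normalization, centring on the array median, a filter on low values, a trended prior, other fits and each array left out.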

Additional observations from a re-analysis of the deposited data

How the results depend on the processing

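Quantile normalization moved the median central cell difference of the subunits to -0.46. It moved the number at least 1 lower to 13 there (6.92% of all genes) and to 9 in the synergid cells (5.26%). With it, 2 of all genes passed the adjusted threshold in the egg cell, and 1 gene passed in the gametophyte comparison when the 7 arrays were fitted with 2 means. In no alternative did a subunit gene pass. Centring on the array median moved the central cell median of all genes from 0.06 to -0.09. Without the egg cell array, the gametophyte median of the subunits was -0.91 and 16 subunit genes were at least 1 lower. The shares of all genes and of the high-signal genes were not measured in this setting. On the central and synergid cell arrays taken singly, 27.5% and 18.1% of the high-signal genes were at least 1 lower. When single AIC or nucellus arrays were left out, the AIC against nucellus median ranged from -0.39 to 0.11 and the number at least 1 lower from 0 to 2. Differences that changed sign ranged from -0.41 to 4.33 for RPN7 and from -0.27 to 1.34 for RPN11 (AIC against nucellus), from -0.22 to 2.16 for RPN7 (egg cell), and from -0.15 to 0.51 for PBA1 and -0.021 to 0.43 for RPN1B (gametophyte cells). The sign of RPN1B changed without the second AIC array and the others without the second nucellus array. The cause was not tested. The AIC and nucellus arrays share only a number: the correlation of their deviations across genes was 0.0314, and with the replicate number as a block 0 genes passed. The other 268 values of named subunit genes kept their direction and their side of the threshold. With 7 arrays and 2 residual degrees of freedom, a difference that misses the threshold does not show that levels were alike.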
